A study of Mus musculus with 2 samples.

Results

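The metallothioneins Mt1, Mt2 and Mt3 and the zinc exporter Slc30a1 were followed across the cell classes of Lewis lung carcinoma (LLC) tumors. They were taken by symbol, 4 of the 32285 genes counted. The members were chosen by their UMI counts in cell classes and libraries in earlier results of these data, so their levels are given as a description with no test.

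The tumors grew in C57BL/6 littermates with floxed Gucy1b1, which encodes a subunit of soluble guanylate cyclase (sGC). The sGC-Ctr mice were Gucy1b1 flox/flox and carried no Cre. The sGC-∆PC mice were Cspg4-CreERT2::Gucyc1b1 flox/flox, in the spelling of the label, so that tamoxifen removes the gene in cells that use the Cspg4 promoter, which is active in pericytes but not in them alone. Mice of both genotypes had tamoxifen, 5 doses, when 4 weeks old. LLC cells, a mouse lung carcinoma line, were placed under the skin at 8 weeks. Tumors were dissected 2 weeks later. Each genotype gave 1 single-cell RNA library from 3 pooled tumors, so genotype and library cannot be told apart, and the spread between tumors cannot be seen. Intervals below are exact 95% intervals of counted RNA molecules (unique molecular identifiers, UMIs) and cover counting error only.

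Metallothioneins are small proteins rich in cysteine that bind zinc and copper and buffer the free metal of the cell. Mt1 and Mt2 are made in many tissues and are known to be induced by zinc, glucocorticoids and oxidative stress, whereas Mt3 is best known from the brain. Slc30a1 (ZnT1) carries zinc out of the cell across the plasma membrane. The zinc-sensing factor MTF1 binds metal response elements (MREs) in the promoters of Mt1, Mt2 and Slc30a1.

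Stretches before the RefSeq start of Mt1, Mt2 and Slc30a1 are printed here because they hold the short sequence that MTF1 is known to bind. Mt3 is not printed because it held none there, though it too stood higher in hypoxic cancer cells, from few molecules. Each printed stretch is the 250 bases before the RefSeq start (GRCm38.p6), 5′ to 3′ on the plus strand. The windows are chr8:94178839-94179088 for Mt1, chr8:94172368-94172617 for Mt2 and chr1:191906531-191906780 for Slc30a1. Capitals mark the MRE core, searched on both strands as TGCACNC or TGCGCNC.
Mt1: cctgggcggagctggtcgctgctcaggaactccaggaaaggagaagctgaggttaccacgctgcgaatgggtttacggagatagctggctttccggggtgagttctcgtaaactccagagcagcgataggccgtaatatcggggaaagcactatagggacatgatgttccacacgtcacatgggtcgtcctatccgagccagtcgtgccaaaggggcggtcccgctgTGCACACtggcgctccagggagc
Mt2: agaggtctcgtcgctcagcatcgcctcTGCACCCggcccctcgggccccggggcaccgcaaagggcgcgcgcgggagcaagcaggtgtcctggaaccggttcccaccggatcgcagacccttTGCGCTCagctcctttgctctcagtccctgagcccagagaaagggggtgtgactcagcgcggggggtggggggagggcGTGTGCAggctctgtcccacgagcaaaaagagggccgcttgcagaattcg
Slc30a1: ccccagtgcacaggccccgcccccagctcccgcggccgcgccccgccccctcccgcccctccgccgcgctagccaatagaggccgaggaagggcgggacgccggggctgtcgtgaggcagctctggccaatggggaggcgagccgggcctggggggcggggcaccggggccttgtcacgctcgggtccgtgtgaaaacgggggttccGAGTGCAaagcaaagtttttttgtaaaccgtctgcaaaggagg

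Counted over these bases and the 50 after the start, Mt1 held 3 MRE cores, Mt2 held 4, Slc30a1 held 2 and Mt3 held 1. In the bases before the start the counts were 1 for Mt1, 3 for Mt2, 1 for Slc30a1 and 0 for Mt3. The RefSeq start lies 222 bases before the first coding base in Mt1, 230 in Mt2, 226 in Slc30a1 and 193 in Mt3. Bases between the end of the window and the coding sequence were not searched. The counts may therefore miss MREs of a start nearer to the coding sequence, and they are not counts over the whole promoter. Among 32851 mouse promoter windows of 300 bases, 250 before and 50 after the start, 25.7% held at least 1 core, 7.11% at least 2, 1.97% at least 3 and 0.517% at least 4. These shares belong to the counts over the whole window, and none was made for the bases before the start alone. The core of the hypoxia response element, searched on both strands as ACGTG or GCGTG, was found 2 times for Mt1, 2 times for Mt2, 1 time for Slc30a1 and not for Mt3, against at least 1 in 43.8% and at least 2 in 20.6% of windows. At 1 place in Mt2 the letters of both cores overlap. These are matches of letters, not measured binding. In the GENCODE annotation of GRCm38, Mt3 (chr8:94152607-94154146), Mt2 (chr8:94172664-94173568) and Mt1 (chr8:94179082-94180327) lie in 1 cluster on the plus strand of chromosome 8 with 3 exons each, Mt2 and Mt1 separated by 5513 bases. Slc30a1 (chr1:191906767-191913247, plus strand) has 2 exons.

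After filtering, sGC-Ctr held 12220 cells, the median one with 35776.5 UMIs. In sGC-∆PC there were 22498 and the median cell had 8685. By marker genes, 89.6% and 76.0% of these cells fell into 1 class. Cells that carried the markers of several classes were set aside, 5.05% in sGC-Ctr and 15.9% in sGC-∆PC. All markers of each class were over 2-fold above the other classes in both libraries and none was at 0. In pericytes, the 59 Gucy1b1 UMIs of sGC-Ctr gave 118 per 1000000 UMIs and the 14 of sGC-∆PC gave 36.0, a log2 ratio of -1.71 (-2.66 to -0.85). RNA of broken cancer cells reaches other droplets, and markers of cancer cells put its share at 5.10% to 17.3% of the RNA of the other classes. The libraries shared 131 barcodes, under 1% of each.

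Mt1 and Mt2 were highest in fibroblasts and next highest in cancer cells, and Mt1 was also high in macrophages. Slc30a1 was highest in endothelial cells and lowest, or next to lowest, in cancer cells. Levels are UMIs of the gene per 1000000 UMIs of the class (CPM). In fibroblasts, the main matrix-producing stromal class here (104 and 195 cells), Mt1 stood at 3162 CPM (3091 to 3235) in sGC-Ctr and 3524 (3441 to 3609) in sGC-∆PC. Mt1 in cancer cells was 687 and 794 CPM, sGC-Ctr first, and in macrophages 634 and 736. The fibroblast level was therefore 4.60-fold (4.50 to 4.71) and 4.44-fold (4.33 to 4.54) that of cancer cells. Pericytes, granulocytes, T and NK lymphocytes and conventional dendritic cells lay between 169 and 321 CPM, and neighbors in this order mostly had overlapping intervals.

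**Figure D1:**
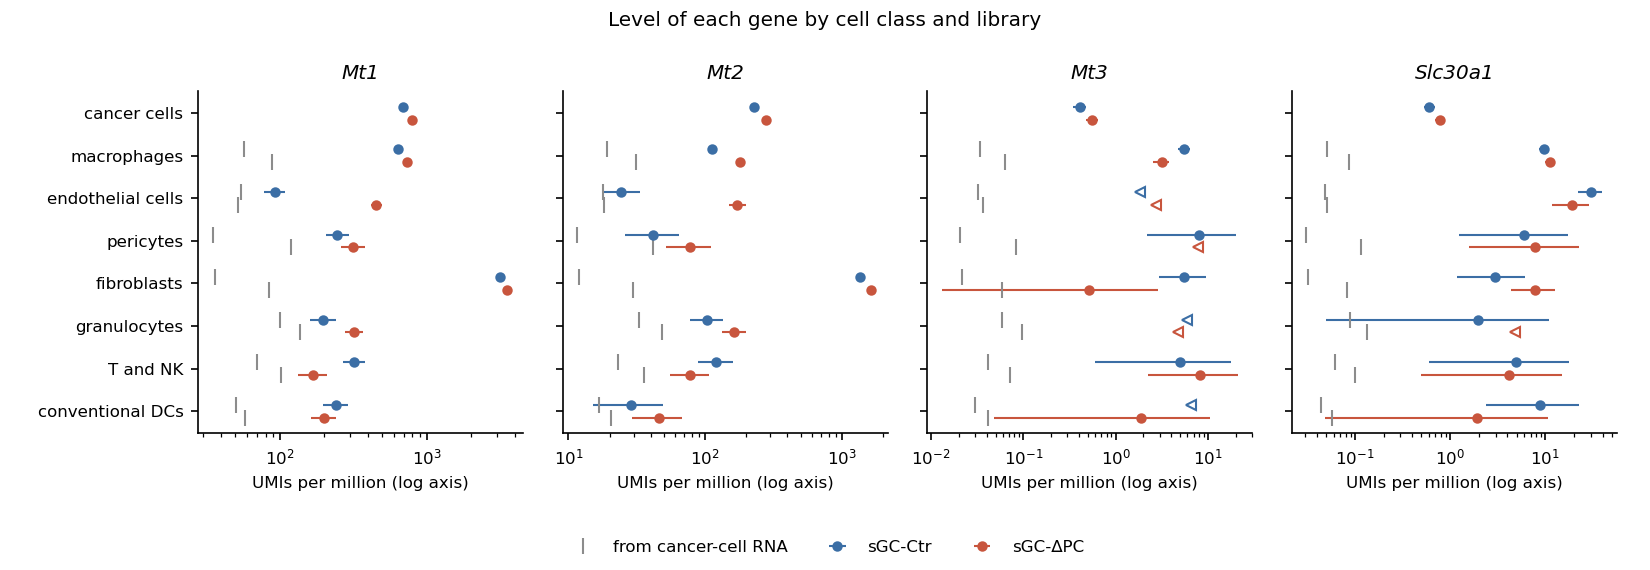
Level of each gene in CPM (log axis) in 8 cell classes, with exact 95% Poisson intervals for counting error, blue for sGC-Ctr and red for sGC-∆PC. Gray ticks show the level that stray cancer-cell RNA alone would give, and open triangles the level of 3 counts where a class had no UMI. Mt1 and Mt2 are highest in fibroblasts and Slc30a1 in endothelial cells, 29.9 and 19.0 CPM.

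For Mt2, fibroblasts and cancer cells were again first and next in order. It stood at 1355 and 1635 CPM in fibroblasts, 228 and 278 in cancer cells, and 112 and 179 in macrophages, each time sGC-Ctr first. The Mt2 interval of macrophages overlapped those of T and NK lymphocytes and granulocytes in sGC-Ctr. In sGC-∆PC it overlapped those of endothelial cells and granulocytes. The classes differed in how many Mt2 UMIs came with each Mt1 UMI: 0.331 and 0.350 in cancer cells, 0.176 and 0.243 in macrophages, and 0.428 and 0.464 in fibroblasts. Mt2 was thus scarcer beside Mt1 in macrophages than in fibroblasts in both libraries, with intervals that do not overlap (0.170 to 0.183 against 0.411 to 0.447 in sGC-Ctr). The coding sequences of the paralogs are alike, and how reads shared by them were counted was not tested.

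The fibroblast level rested on few cells. In sGC-Ctr, 8 of 104 fibroblasts held 50% of the Mt1 UMIs, and in sGC-∆PC 6 of 195 did. The median fibroblast had 4.33 Mt1 UMIs per 10000 in sGC-Ctr and 9.85 in sGC-∆PC, while the highest had 414 and 308. The median cancer cell had 2.83 and 4.33, so the typical fibroblast stood nearer to the typical cancer cell than the summed level shows. Without the 5 fibroblasts with the most Mt1, the level was 2058 CPM in sGC-Ctr and 2063 in sGC-∆PC, still above cancer cells. These top cells carried 105 to 620 UMIs of fibroblast markers per 10000, against a limit of 100 for the class and medians of 434 and 268. The sGC-Ctr cell with the most Mt1, 863 UMIs, carried 105, near the limit, so its place in this class is uncertain. The hypoxia score of the top cells was 113 to 223. This score is the UMIs per 10000 of 24 known hypoxia-induced genes such as Slc2a1, Car9 and Ndrg1. Cancer-cell RNA would account for 36.3 and 84.2 CPM. Split into 3 equal groups by that score, fibroblasts of sGC-Ctr had 735, 419 and 8242 CPM of Mt1 from the lowest to the highest group, and those of sGC-∆PC 804, 1063 and 7375. The highest group held 87.9% and 84.9% of the Mt1 of the class, so the high fibroblast level lay in cells with a high hypoxia score.

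**Figure D2:**
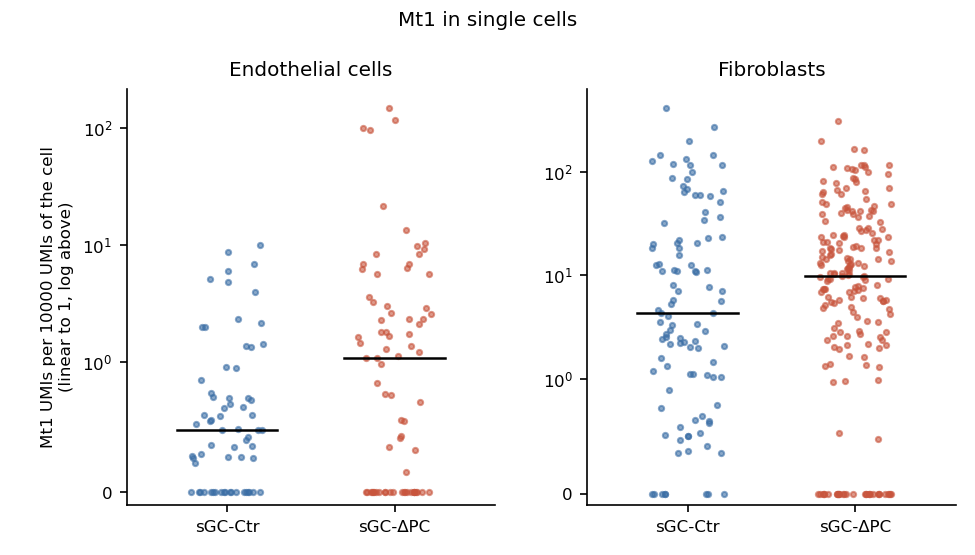
Mt1 UMIs per 10000 UMIs in each endothelial cell (left) and fibroblast (right), on an axis that is linear to 1 and logarithmic above, with black bars at the median. A few fibroblasts reach over 100 in both libraries, and 4 endothelial cells of sGC-∆PC stand apart from the rest.

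Slc30a1, the exporter, was a low gene with another order of classes. Endothelial cells had 49 UMIs or 29.9 CPM (22.1 to 39.6) in sGC-Ctr and 21 UMIs or 19.0 CPM (11.8 to 29.1) in sGC-∆PC. Macrophages had 9.57 (8.55 to 10.7) and 11.1 (9.95 to 12.3), and cancer cells 0.605 (0.532 to 0.686) and 0.781 (0.689 to 0.883). Endothelial cells were 49.5-fold (35.6 to 67.4) and 24.3-fold (14.8 to 38.0) above cancer cells, and macrophages 15.8-fold and 14.2-fold. Endothelial cells were above macrophages by 3.13-fold (2.27 to 4.24) in sGC-Ctr and 1.72-fold (1.05 to 2.67) in sGC-∆PC. All other classes had at most 15 UMIs of Slc30a1, and their intervals overlapped those of their neighbors. Macrophages, a large class, held 45.2% and 44.3% of all Slc30a1 UMIs of the kept cells, and endothelial cells 6.85% and 2.59%.

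Within endothelial cells, those with the highest hypoxia score had the lowest Slc30a1 in both libraries. Split into 3 equal groups by hypoxia score, sGC-Ctr endothelial cells had 44.7, 33.0 and 14.8 CPM of Slc30a1 from the lowest to the highest group, and sGC-∆PC cells 33.5, 21.7 and 4.92. Mt1 in the same groups was 66.1, 93.1 and 114 in sGC-Ctr and 137, 125 and 1008 in sGC-∆PC, where the last group includes 4 cells that held 367 of the 501 Mt1 UMIs of the class. In sGC-Ctr 1 cell held 40 of the 69 Mt1 UMIs of the last group, and 1 cell held 17 of the 34 of the lowest group. Without the top cell of each group, the levels were 35.5 CPM (20.7 to 56.8), 67.2 (46.3 to 94.4) and 54.7 (36.6 to 78.6). These are given from the lowest to the highest group, and the intervals overlap. The last group held 9 and 2 Slc30a1 UMIs, so these steps rest on few molecules.

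In cancer cells, Mt1 and Mt2 stood with the hypoxia program. No member is among the genes of the hypoxia score. The 10% of cancer cells with the highest score (731 in sGC-Ctr, 1158 in sGC-∆PC) were set against the lower 50% (3656 and 5788). Mt1 was 3161 against 286 CPM in sGC-Ctr and 3095 against 374 in sGC-∆PC, log2 ratios of 3.47 (3.45 to 3.48) and 3.05 (3.03 to 3.06). For Mt2 the levels were 1101 against 98.9 and 1162 against 134, log2 ratios of 3.48 and 3.11. Ranked by this ratio, Mt1 was number 16 of 13395 genes in sGC-Ctr and 15 of 13420 in sGC-∆PC, and Mt2 number 15 and 13, in lists whose top is held by genes of the score itself. By comparison, 337 genes of sGC-Ctr (2.52%) and 370 of sGC-∆PC (2.76%) were over 2-fold higher, and the median gene stood at -0.25 and -0.18. Counting error is small here; the choice of cells moved the Mt1 ratio between 2.54 and 3.99, and thinned cells of sGC-∆PC gave 2.39.

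Slc30a1 was also higher in these cells, from far fewer molecules. It had 92 UMIs against 61 in sGC-Ctr (2.50 against 0.324 CPM), a log2 ratio of 2.95 (2.47 to 3.44), and 47 against 123 in sGC-∆PC (1.73 against 0.738), a ratio of 1.23 (0.72 to 1.73). The intervals do not overlap, so the 2 libraries gave different sizes for the same contrast. The high cells had less in sGC-∆PC than in sGC-Ctr, and the lower cells had more. Mt3 had 0.599 against 0.362 CPM in sGC-Ctr and 0.923 against 0.516 in sGC-∆PC, log2 ratios of 0.73 (-0.04 to 1.44) and 0.84 (0.13 to 1.49), from 22 UMIs in the high cells of sGC-Ctr.

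Along the deciles of the score, Mt1 was higher at each of 9 steps in both libraries. It went from 228 CPM in the lowest decile to 949 in the ninth and 3161 in the tenth in sGC-Ctr, and from 273 to 1314 and 3095 in sGC-∆PC. The last step alone was therefore the steepest in both. Mt2 was higher at 7 of 9 steps in sGC-Ctr, from 102 to 1101 CPM, and at 9 of 9 in sGC-∆PC, from 109 to 1162. In deciles 1 to 9 Mt1 was higher in sGC-∆PC than in sGC-Ctr, and in the tenth it was not. The deciles were cut within each library, and the mean score was also higher in sGC-∆PC in deciles 1 to 9. It was 22.2 in sGC-∆PC and 18.3 in sGC-Ctr in the first decile, 68.7 and 66.1 in the ninth, and 96.4 and 104 in the tenth. The deciles thus do not compare the libraries at equal scores. The top decile held 41.6% and 32.2% of the Mt1 of cancer cells, with 9.03% and 8.26% of their UMIs. The depth of the cells was 47810 UMIs for the median cell of the tenth decile and 36235.5 in the first in sGC-Ctr, and 12208 and 14096.5 in sGC-∆PC.

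**Figure D3:**
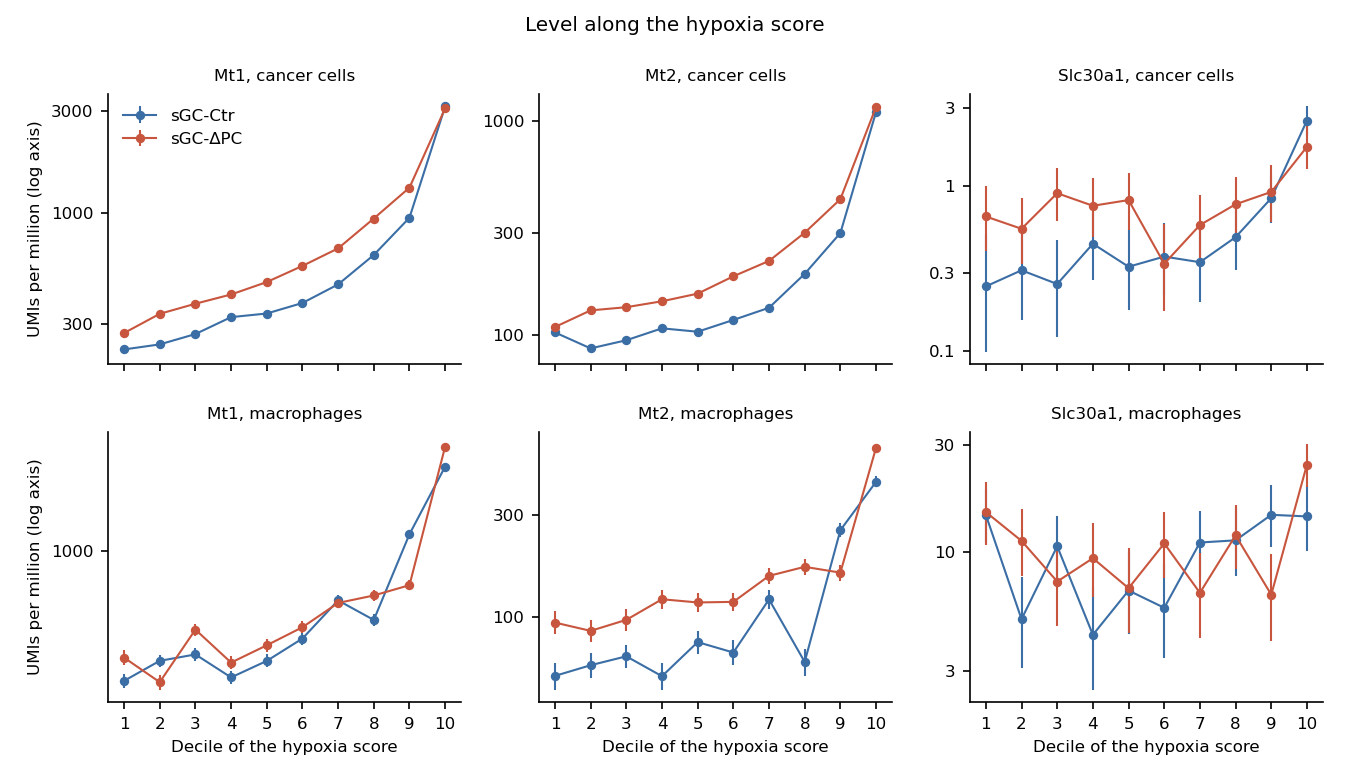
Level in CPM (log axis) of Mt1, Mt2 and Slc30a1 in deciles of the hypoxia score, for cancer cells (top) and macrophages (bottom), with exact 95% intervals for counting error, blue for sGC-Ctr and red for sGC-∆PC. Mt1 in cancer cells climbs from 228 to 3161 in sGC-Ctr and from 273 to 3095 in sGC-∆PC, while Slc30a1 stays between 0.248 and 0.925 until the last decile.

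Across single cancer cells thinned to 2000 UMIs each (7234 and 11123 cells), the genes whose counts went most with Mt1 were, after Mt2, Adm, Ero1l, Gapdh, Ndrg1, Slc2a1, Mif and Hilpda. Pearson's r with Mt2 was 0.583 in sGC-Ctr and 0.521 in sGC-∆PC, with Adm (adrenomedullin) 0.361 and 0.306, and with Hilpda, a lipid droplet protein, 0.253 and 0.198. For Mt2 the list was Mt1, Adm, Ero1l, Ndrg1, Slc2a1, Hilpda, Higd1a and Gapdh. Of the 8 names other than Mt1 and Mt2, 5 belong to the hypoxia list, which has 24 genes. How many of these 24 were among the genes ranked was not counted. Gapdh, Hilpda and Mif are not on the list, which does not place them outside the hypoxia response. Of 3994 genes ranked, 25 had r above 0.1 with Mt1 in both libraries. The cells of a library share depth and stray RNA, and no test is given.

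Other genes of zinc handling did not stand with the hypoxia score in cancer cells. Of a list of 29 zinc genes, 19 had enough UMIs in each library, and 3 were over 2-fold higher in each, Mt1, Mt2 and Slc30a1. None was over 2-fold lower, and the list's median log2 ratio was -0.06 in sGC-Ctr and 0.03 in sGC-∆PC. Mtf1, the zinc sensor itself, stood at 12.3 CPM in the lower cells and 11.9 in the high cells of sGC-Ctr, and at 11.8 and 12.8 in sGC-∆PC. Slc30a4, the best counted exporter of the family, had log2 ratios of 0.26 and 0.03. The zinc importers Slc39a10 and Slc39a7 had -0.38 and -0.28 in sGC-Ctr and -0.15 and -0.12 in sGC-∆PC.

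Lists of companion responses differed from each other. Of the copper genes, 0 of 9 were over 2-fold higher in either library. Of 10 targets of NRF2, the oxidative stress factor, 2 were, Hmox1 and Slc7a11, both named after their values were seen. Hmox1, which breaks down heme, stood at 8.90 CPM in the lower cells and 60.6 in the high cells of sGC-Ctr, and at 11.9 and 77.6 in sGC-∆PC, log2 ratios of 2.77 and 2.70. The best counted NRF2 target, Prdx1, had -0.14 and -0.04. Of 7 glucocorticoid targets, 3 were over 2-fold higher in sGC-Ctr and 2 in sGC-∆PC, with Errfi1 at 1.24 and 1.09. The medians of this list were 0.71 and 0.68, against -0.25 and -0.18 for all genes. Fkbp5 went the other way, at -0.59 (-0.68 to -0.50) and -0.72 (-0.82 to -0.62). Tsc22d3, at -0.30 and -0.05, was near the median gene in sGC-Ctr and above it in sGC-∆PC. Genes of the integrated stress response were over 2-fold higher in 6 of 10 and 5 of 10 cases, with Ddit4 at 1.62 and 1.34 and Atf4 at 0.92 and 0.60. Of 9 immediate early and heat shock genes, which can follow handling of the tissue, 0 were over 2-fold higher in either library, with list medians of -0.08 and 0.07. The contrast is between cells handled together, and the part of handling was not tested.

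In macrophages the same score gave a like pattern for Mt1 and Mt2. The macrophages with the highest score (306 and 477) had 1959 and 2289.6 CPM of Mt1, against 400 and 440 in the lower 50%. The log2 ratios were 2.29 (2.24 to 2.34) and 2.38 (2.33 to 2.43) for Mt1, 2.81 and 2.58 for Mt2, and 0.80 (0.25 to 1.33) and 1.31 (0.91 to 1.70) for Slc30a1. In this contrast 5.04% of 10692 genes in sGC-Ctr and 4.39% of 10616 in sGC-∆PC were over 2-fold higher. Mt1 was higher at 7 of 9 decile steps in both libraries, so the course was less even than in cancer cells, and Slc30a1 followed no steady course over the deciles. Here immediate early and heat shock genes stood higher too, 4 of 9 over 2-fold in both libraries, and Hmox1 had log2 ratios of 2.69 and 3.51. The share of cancer-cell RNA was 9.06% in the tenth decile and 9.98% in the first in sGC-Ctr, and 10.6% and 12.4% in sGC-∆PC. Depth moved with the score in sGC-∆PC, from 2519 UMIs in the median cell of the first decile to 6423 in the tenth, and from 9152 to 7394.5 in sGC-Ctr, and its part was not tested.

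Among macrophage states, cells rich in Gpnmb, Mmp12, Hmox1, Fabp5 and Trem2 had the highest Mt1, Mt2 and Slc30a1 in both libraries. Each state is a range of marker scores (at least 2-fold the class mean), not a cell type. The Gpnmb Mmp12 Hmox1 state (225 and 334 cells) had 2351 and 2499 CPM of Mt1, 4.64-fold (4.50 to 4.79) and 4.14-fold (4.02 to 4.27) the other macrophages. Its Mt2 was 617 and 661 CPM, and its Slc30a1 27.5 (21.2 to 35.1) and 31.3 (24.4 to 39.4), 3.34-fold and 3.27-fold the others. Slc30a1 in these macrophages was thus near its level in endothelial cells. Macrophages of the hypoxic state (89 and 67 cells) came next in Mt1, with 1566 and 2261 CPM, of which 5 cells held 46.5% and 62.0%. Their Slc30a1 was 9.26 (3.40 to 20.2) and 9.73 (2.65 to 24.9), intervals that hold the level of macrophages as a whole. The mean hypoxia score was 156 and 160 in the hypoxic state and 106 and 101 in the Gpnmb Mmp12 Hmox1 state. In the other states it was at most 72.1 and 67.6. How far the high Mt1 of the Gpnmb Mmp12 Hmox1 state went with this score was not tested.

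The other macrophage states were ordered as well. Resident-like cells (Mrc1, Folr2, Ccl8) had 720 and 926 CPM of Mt1, and osteoclast-like cells 617 and 736. States lower in Mt1 were the MHC class II high cells, with 323 and 382, and the monocytes (Ly6c2, Plac8), with 240 and 401. Monocytes and MHC class II high cells were thus the lowest pair in both libraries, in opposite order. Proliferating macrophages had the lowest Slc30a1, 4.72 (2.96 to 7.15) and 3.60 (1.86 to 6.28), with intervals that overlap those of macrophages of no state. These had 1446 UMIs in the median cell of sGC-∆PC, against 16702.5 in sGC-Ctr.

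Cells of the macrophage gate ordered by their own Mt1 carried Slc30a1 and Hmox1 with it. From the lowest to the highest quartile of Mt1, Slc30a1 was 4.43, 6.40, 10.5 and 16.3 CPM in sGC-Ctr and 9.16, 7.64, 11.7 and 18.4 in sGC-∆PC. Hmox1 was 131, 144, 217 and 717 CPM in sGC-Ctr and 131, 175, 328 and 884 in sGC-∆PC. The mean hypoxia score was 80.8 and 80.2 in the top quartile against 60.7 and 60.0 in the lowest, so hypoxia, Hmox1 and Slc30a1 moved together with Mt1, and their separate parts were not tested.

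Mt3, the isoform best known from the brain, was within macrophages nearly all in osteoclast-like cells (Ctsk, Acp5, Mmp9). Of the 186 Mt3 UMIs of sGC-Ctr macrophages, 183 (98.4%) were in this state, as were 99 of 102 (97.1%) in sGC-∆PC. The level was 152 CPM in 81 cells of sGC-Ctr and 101 CPM in 147 cells of sGC-∆PC. The UMIs came from 20 and 24 of these cells, and 1 sGC-Ctr cell alone had 97. Cancer cells had 165 and 183 Mt3 UMIs, 0.406 and 0.559 CPM, and all other classes had at most 13. No Mt3 UMI was found in endothelial cells, where 3 counts would be 1.83 and 2.72 CPM. Mt1 in osteoclast-like cells was 0.972-fold and 1.00-fold that of other macrophages, so Mt3 and Mt1 had different macrophage states at their highest level.

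**Figure D4:**
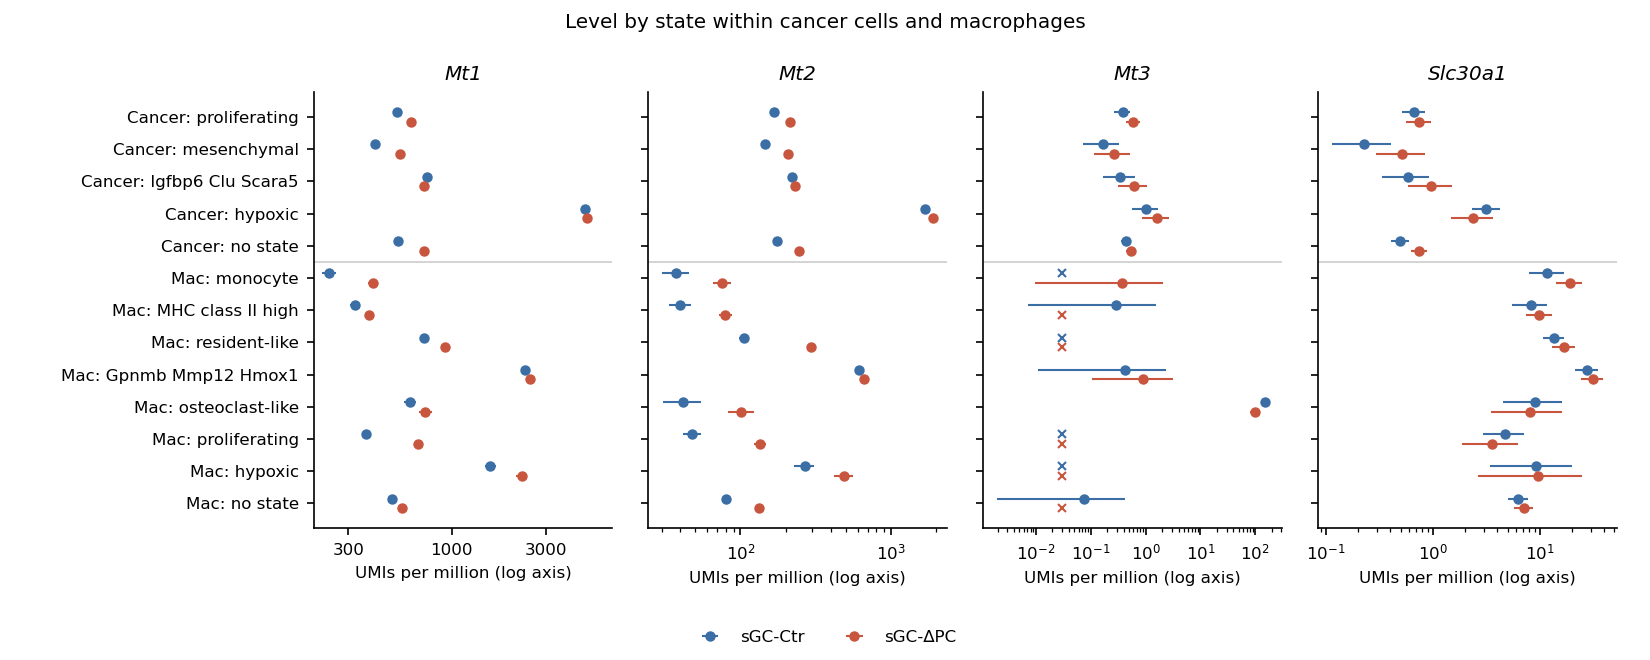
Level in CPM (log axis) of each gene by state within cancer cells (above the line) and macrophages (below, Mac), with exact 95% intervals for counting error, blue for sGC-Ctr and red for sGC-∆PC; crosses at a fixed position mark states with no UMI. Hypoxic cancer cells and Gpnmb Mmp12 Hmox1 macrophages are highest in Mt1 and Mt2, and osteoclast-like macrophages stand apart in Mt3 at 152 and 101.

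Among cancer states, hypoxic cells had the highest level of all members in both libraries, Mt3 from few molecules. The hypoxic state (315 and 354 cells) had 4698 and 4829 CPM of Mt1, 8.77-fold (8.70 to 8.85) and 7.06-fold (6.99 to 7.14) the other cancer cells. Its 4.31% and 3.06% of cancer cells held 24.9% and 16.3% of their Mt1. Proliferating cells had 529 and 624, mesenchymal cells (Prg4, Aspn, Lum) 409 and 549, the lowest in both libraries, and Igfbp6 Clu Scara5 cells 747 and 728. Slc30a1 was 3.18 and 2.40 CPM in hypoxic cells and 0.227 and 0.520 in mesenchymal cells.

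Between the libraries, Mt1 and Mt2 were modestly higher in sGC-∆PC in most classes, with the largest ratio in endothelial cells. Mt3 was lower in sGC-∆PC in macrophages, 5.51 CPM in sGC-Ctr and 3.14 in sGC-∆PC. In cancer cells the log2 ratio, sGC-∆PC over sGC-Ctr, was 0.21 (0.20 to 0.22) for Mt1, 0.29 (0.27 to 0.30) for Mt2 and 0.37 (0.11 to 0.63) for Slc30a1, below 2-fold, which 3.86% of 15225 genes passed in either direction. In macrophages it was 0.22 (0.19 to 0.24) for Mt1, 0.68 (0.62 to 0.74) for Mt2 and 0.21 (-0.01 to 0.43) for Slc30a1, where 1.52% of 12290 genes passed 2-fold. Macrophages held 8.38% and 11.2% RNA of cancer cells. Among macrophages with under 25% of it the ratios were 0.19 for Mt1 and 0.63 for Mt2, and in thinned macrophages 0.26 and 0.83. Mt1 was higher in sGC-∆PC in 7 of 7 macrophage states and in 3 of 4 cancer states, Mt2 in 7 of 7 and 4 of 4, and both also in the cells of no state of each class. The states are parts of 1 library per genotype, so these counts are not of separate cases, and no such count was made over all genes. The largest ratios of Mt1 and Mt2 by state were those of Mt2 in proliferating macrophages, 47.9 against 136 CPM or 1.50 (1.27 to 1.74), and in resident-like macrophages, 106 against 294 or 1.47 (1.33 to 1.62). Proliferating macrophages differed in depth, 16702.5 and 1446 UMIs in the median cell, and in cancer-cell RNA, 7.65% and 14.5%. In resident-like macrophages 5 cells held 23.1% and 34.1% of the Mt2 UMIs. The part of these differences was not tested. In hypoxic cancer cells Mt1 differed by 0.04. The median hypoxia score of cancer cells was 38.5 in sGC-Ctr and 46.0 in sGC-∆PC. Among cancer cells within the same middle range of the score, the ratios of the members kept their direction. Direction alone does not show how much of each ratio went with the score, and that was not tested.

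Endothelial cells (66 and 75) had 151 Mt1 UMIs, 92.2 CPM (78.1 to 108), in sGC-Ctr and 501 UMIs, 454 CPM (415 to 495), in sGC-∆PC. Stray cancer-cell RNA would give 54.4 and 51.9. The log2 ratio was 2.30 (2.03 to 2.57), or 4.92-fold, and for Mt2 (40 and 190 UMIs) it was 2.82 (2.32 to 3.35). Of 6142 genes, 1.71% passed 2-fold in either direction in this class. In sGC-∆PC, 4 cells held 367 of the 501 Mt1 UMIs. They carried 12.6 to 20.7 UMIs of endothelial markers per 10000, near the limit of 10 for the class and below its median of 44.6, with 8.28% to 31.2% cancer-cell RNA, so their place in this class is uncertain. Without the 5 endothelial cells with the most Mt1 in each library, the levels were 44.3 and 117 CPM, a log2 ratio of 1.40. For Mt2, without the 5 cells with the most Mt2, they were 14.0 and 53.4, a ratio of 1.94. Stray RNA would give 18.0 and 18.1 CPM of Mt2, against 24.4 and 172 in all cells of the class. In sGC-Ctr the levels without the 5 cells lay below the stray level of the whole class for both genes. The lower side of these ratios is thus not clear of stray RNA. Among cells with under 25% cancer-cell RNA the ratios were 2.56 and 2.77. That limit left out the sGC-Ctr cells ranked 1 to 3 by Mt1 UMIs, with 33.2%, 31.6% and 31.4%. It kept the uncertain sGC-∆PC cells ranked 1 and 2, with 8.28% and 24.5%, which held 105 and 92 Mt1 UMIs. The ratios under this limit thus still include cells of uncertain class. Thinned to 2000 UMIs, 13.3% (5.94 to 24.6) of 60 cells in sGC-Ctr and 32.8% (21.0 to 46.3) of 58 in sGC-∆PC had a Mt1 UMI, against 71.2% and 68.0% unthinned. T and NK lymphocytes, with medians of 3149 and 3781 UMIs against 22381.5 and 7459 in endothelial cells, had thinned shares of 26.3% and 28.9%. No class is sure to lack Mt1, so these shares set no background level. Slc30a1 in endothelial cells had a ratio of -0.65 (-1.47 to 0.11).

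**Figure D5:**
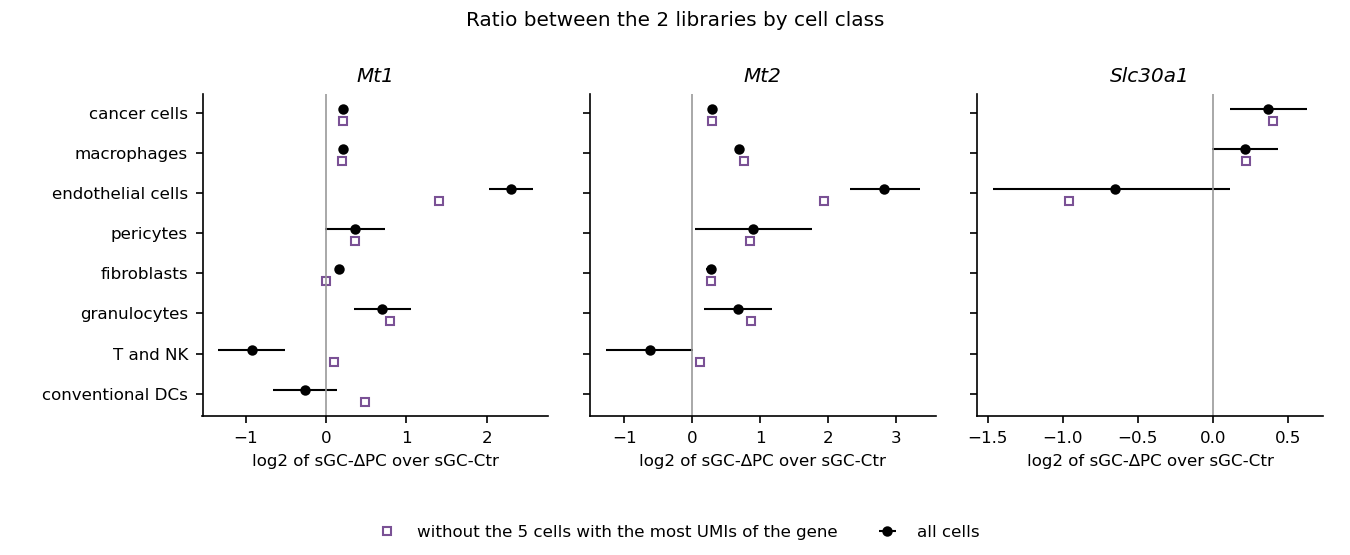
Log2 ratio, sGC-∆PC over sGC-Ctr, for Mt1, Mt2 and Slc30a1 by cell class, with the exact 95% interval for counting error (black), and without the 5 cells of each library that hold the most UMIs of the gene (open squares); classes with under 50 UMIs are left out. Endothelial cells have the largest ratios, 2.30 for Mt1 and 2.82 for Mt2, and 1.40 and 1.94 without those cells.

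Of the smaller classes, fibroblasts had log2 ratios of 0.16 (0.11 to 0.20) for Mt1 and 0.27 (0.20 to 0.34) for Mt2, and the Mt1 ratio was -0.18 with class limits at 50% of their level and -0.08 in thinned cells, so its direction was not stable. In fibroblasts 2.03% of 7489 genes passed 2-fold. Granulocytes had 198 and 321 CPM of Mt1, a ratio of 0.70 (0.35 to 1.06), with 3.36% of 2503 genes past 2-fold. Pericytes, the class in which Gucy1b1 was to be deleted, had 247 (205 to 295) and 316 (263 to 378), a ratio of 0.36 (-0.01 to 0.73), with 3.26% of 2640 genes past 2-fold. Cancer-cell RNA made up 5.10% and 15.0% of their RNA, and among pericytes with under 25% of it the ratio was 0.42. Conventional dendritic cells had 240 and 200, a ratio of -0.26 (-0.66 to 0.14), with 1.72% of 2614 genes past 2-fold. T and NK lymphocytes had 320 and 169, a ratio of -0.93 (-1.34 to -0.52) that rested on 2 cells of sGC-Ctr, with 2.07% of 2465 genes past 2-fold. Without the 5 lymphocytes with the most Mt1 in each library the levels were 136 and 145 and the ratio 0.10.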

How the data were processed

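Single-cell RNA libraries of LLC tumors, 1 per genotype (sGC-Ctr and sGC-∆PC, each 3 pooled tumors), were analyzed. The authors deposited raw UMI counts per gene and barcode, made with Cell Ranger 6.1.1 on mm10 according to the submitters' processing notes, and the values are whole numbers. The filters on cells were a mitochondrial share below 10%, and totals of UMIs and of genes no more than 3 median absolute deviations from the log median of their library.

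A cell joined a class when its class markers reached a set number of UMIs per 10000 (10 for macrophages and endothelial cells, 6 for cancer cells, 8 for pericytes, 100 for fibroblasts and granulocytes, 5 for T cells, 3 for the rest) with at least 2 markers found. Cells past several limits were set aside, which served in place of a doublet caller. The limits were set after marker scores, but not member values, were seen. The members and gene lists were chosen with earlier results of these data known.

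UMIs were summed per class and library. With 1 library per condition no test was run: Poisson, binomial and conditional intervals are exact at 95%, and free RNA and variation between tumors lie outside them. Gene counts past 2-fold used genes with at least 50 UMIs and a pseudocount of 0.5 UMIs, while ratios of named genes used none. Named genes were the members, zinc genes with at least 50 UMIs, the genes of each companion list with the most UMIs, and the 8 genes most correlated with a member of at least 500 cancer-cell UMIs in each library. The scripts were tested on simulated data. Depths were 476464534 and 412064152 UMIs in kept cells. Of these cells, 547 and 3928 were under 2000 UMIs and left out of thinned values and of the Mt1 quartiles. Alternatives changed the filters, limits, score and depth. Promoters came from RefSeq, and protein sequences were not used here. Analysis used Python 3.11.15, numpy 2.4.6, scipy 1.17.1, pandas 2.3.3 and matplotlib 3.10.9.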

Additional observations from a re-analysis of the deposited data

Results flagged for a closer look

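Mt1 in T and NK lymphocytes went the other way from most classes, with a log2 ratio (sGC-∆PC over sGC-Ctr) of -0.93 while cancer cells, macrophages, fibroblasts, granulocytes and endothelial cells had ratios above 0. The difference between classes was not tested. In sGC-Ctr, 2 of the 93 lymphocytes held 71 of the 130 Mt1 UMIs, and without the 5 cells with the most Mt1 in each library the levels were 136 and 145 CPM.

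Mt3 in macrophages had a ratio of -0.81 while cancer cells had 0.46, a difference that was also not tested. The highest sGC-Ctr macrophage held 97 of 186 Mt3 UMIs and the highest of sGC-∆PC 25 of 102. Without the 5 cells with the most Mt3 in each library the ratio was -0.18.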

How the results depend on the processing

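No paired analysis was possible because each genotype has 1 library. Of 328 alternative values for 52 results, 8 were counted as reversed and 187 stayed within the counting interval of the main value. A change of sign was counted as reversed only where the main interval left out 0. Changes of sign in other results are therefore not listed here. For example, Mt2 in T and NK lymphocytes, with a ratio of -0.63 (-1.28 to 0.01), had 57.2 and 61.5 CPM without its 5 top cells. Reversed were Mt1 in fibroblasts between libraries at -0.18 with class limits at 50% of their level and -0.084 in thinned cells, Mt2 there at -0.0048 with those limits, Mt1 in T and NK lymphocytes at 0.10 without the 5 top cells (chosen after seeing the data), Mt3 in macrophages at 0.023 with doubled limits and 0.88 in thinned cells, Mt3 against the hypoxia score in sGC-∆PC at -0.29 with mitochondrial UMIs under 5%, and Mt1 of macrophages over cancer cells in sGC-∆PC at 0.037 with cells past several limits kept. The cause was not tested.

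The endothelial ratio between libraries, 2.30 for Mt1 and 2.82 for Mt2, was 1.35 and 2.01 with doubled limits, 3.51 and 3.75 in thinned cells, and 1.40 and 1.94 without the 5 top cells. The Mt1 ratio by hypoxia score, 3.47 in sGC-Ctr and 3.05 in sGC-∆PC, was 3.99 and 3.44 for the highest 5% of cells, 2.78 and 2.54 for the highest 20%, 3.40 and 2.98 without glycolysis genes, 3.35 and 2.39 in thinned cells, 3.62 and 3.03 with mitochondrial UMIs under 5%, 3.72 and 3.23 relative to the median gene, and 3.44 and 3.29 in cells without proliferation UMIs.

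The Mt1 ratio of fibroblasts over cancer cells (log2 2.20 and 2.15) was 1.94 and 1.81 with mitochondrial UMIs under 5%, 2.55 and 2.20 with limits at 50%, 1.58 and 1.83 with doubled limits, 1.98 and 1.92 with cells past several limits kept, 2.12 and 1.51 as a mean over cells, 1.61 and 1.40 without the 5 top cells, and 1.79 in thinned cells of sGC-∆PC. For Slc30a1 of endothelial over cancer cells (5.63 and 4.60), the values without the 5 top cells were 5.12 and 3.77, and the mean over cells in sGC-∆PC was 3.24. Thinned sGC-∆PC endothelial cells held no Slc30a1 UMI and gave no value. The Mt1 ratio of Gpnmb Mmp12 Hmox1 macrophages over the others (2.21 and 2.05) was 2.29 and 1.99 in thinned cells and 2.10 in sGC-∆PC cells under 25% cancer-cell RNA, and Mt3 of osteoclast-like macrophages in sGC-Ctr was 8.58 in thinned cells. Depth limits Slc30a1 and Mt3 outside macrophages and cancer cells, where classes held at most 49 UMIs.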

Other observations

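Several other zinc transporters were highest in fibroblasts, as Mt1 and Mt2 were. Of the transporters, 7 had at least 50 UMIs in the class where they were highest and were highest in the same class in both libraries, and for 6 of these the class was fibroblasts. By the same rule 777 of 4544 genes (17.1%) were highest in fibroblasts. Slc39a14 (ZIP14), an importer of zinc and iron, stood at 432 and 365 CPM in fibroblasts and at 40.3 and 40.4 in macrophages, the next class. Slc39a1 (ZIP1) had 129 and 166 in fibroblasts and Slc39a6 (ZIP6) 120 and 104. No test is given, and 9 of the 29 genes had under 50 UMIs in a library.

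Between the libraries, Slc39a1 in cancer cells was the zinc gene over 2-fold apart in that class, 21.9 CPM in sGC-Ctr and 56.4 in sGC-∆PC, a log2 ratio of 1.36 (1.33 to 1.40). It stood at 0.42 (0.33 to 0.50) in macrophages, 0.36 (0.13 to 0.59) in fibroblasts and 0.06 (-0.39 to 0.51) in endothelial cells. Slc30a4 (ZnT4) in macrophages was 13.4 and 27.2 CPM, a ratio of 1.02 (0.86 to 1.19), and in cancer cells 50.1 and 64.8.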
